A study of Mus musculus with 10 samples.

Results

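The genotype by stage interaction is the difference between 2 stage changes: the change of a gene from proliferation to differentiation in cells labelled p27KO minus the change of the same gene in wild-type (WT) cells. It was taken for every autosomal gene in the deposited gene counts, with all 10 RNA-seq libraries in 1 fit, and 12352 autosomal genes were tested out of 12859 genes that passed a filter on low counts and 48795 genes listed. Neural stem and progenitor cells (NSC/NPCs) were grown from the subependymal zone (SEZ) of mice aged 10 weeks, either WT or carrying a mutation in Cdkn1b, the gene of the cell cycle inhibitor p27. Libraries labelled PRO came from secondary neurospheres kept for 3 days in vitro (DIV) with the mitogens EGF and FGF. Libraries labelled DIFF came from cells that were attached for 2 days with FGF alone and then left for 24 h without mitogens in a low dose of serum, which is written 2 + 1 DIV. There were 3 WT libraries and 2 p27KO libraries at each stage. A positive interaction means that a gene fell less, or rose more, in p27KO cells than in WT cells, and a negative one the reverse. All changes are log2 values, levels are CPM, the counts of a gene scaled to a common library total, and positions are those of mouse build GRCm38. A gene was called when the p-value of edgeR's quasi-likelihood test, after Benjamini-Hochberg adjustment across the 12859 genes, was under 0.05.

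Cells leave the cell cycle when the kinases that pair with cyclins are held inactive, and p27 is an inhibitor that binds these cyclin-kinase complexes when mitogens are withdrawn. With the kinases inactive, proteins of the retinoblastoma family stop E2F transcription factors from activating the genes of DNA synthesis. The DREAM complex represses the genes of mitosis. Many of these carry a CCAAT box and a short element called CHR (TTTGAA) close to their start. In the SEZ, stem cells move between quiescence and division and give rise to neuroblasts and, in smaller number, to oligodendrocytes.

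The level of Cdkn1b itself was read first, as a check of the labels. Cdkn1b (chromosome 6, 134920401 to 134925513, plus strand) stood at 103, 105 and 112 CPM in WT neurospheres and at 114 and 90.7 CPM in the neurospheres labelled p27KO, and at 207, 205 and 209 CPM in WT and 140 and 137 CPM in p27KO cells at DIFF. Its counts were not lost in the p27KO libraries, whose description also names WT cells, so the label could not be checked from this gene and p27KO means the libraries labelled so throughout. Xist, the RNA of the inactive X chromosome, was at 1.16 to 2.57 CPM in the WT libraries and at 2258 to 3595 CPM in the p27KO libraries, and 4 Y-linked genes summed to 189 to 533 CPM in WT and 0.148 to 0.585 CPM in p27KO libraries, so genotype and sex cannot be told apart. Library totals ran from 19190068 to 25291674 counts. The stem cell genes Nes, Sox2, Fabp7 and Slc1a3 were at 156 CPM or more in every library, while 5 of 15 microglia markers and 2 of 18 endothelial and mural markers, among them C1qa, Cdh5 and Cldn5, had no count in any. Csf1r and Pecam1 reached at most 0.373 and 0.443 CPM, and the endothelial and mural list summed to 185 to 250.4 CPM in WT and 202 to 254 CPM in p27KO neurospheres and to 313 to 407 CPM in WT and 286 to 391 CPM in p27KO cells at DIFF. No source used here says whether the replicates are separate cultures or animals, so p-values measure the spread between these libraries only.

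In 49 autosomal genes, 0.397% of those tested, the fall from PRO to DIFF was smaller in p27KO than in WT cells. No gene (0%) was called in the other direction. At an unadjusted p under 0.05 there were 373 positive and 165 negative genes, 3.02% and 1.34% of those tested, or 4.36% together. Of the 49 genes, 40 belong to 13 lists of cell division genes, which held 294 tested genes. They include E2F factors, replication and repair proteins, mitotic kinases, kinetochore and spindle proteins and condensin subunits. The other 9 are on none of those lists, 0.0746% of the 12058 genes outside them. None of the 795 tested genes on 39 lists of other functions was called.

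The 49 genes all fell in WT cells, by 1.38 to 4.96 on the log2 scale, and 48 of them also fell in p27KO cells, where 34.1% and 30.5% of all autosomal genes did. Their fitted p27KO changes ran from -3.43 to -0.37. The exception was Cenpf, whose change in p27KO cells was -0.37 and did not pass the test. In relative terms the p27KO change was 17.2% to 80.4% of the WT change, with a median of 53.1%. In these cells the decline was therefore partial rather than missing for 48 of the genes. Because the interaction is built from the same libraries as the 2 changes, the changes are given side by side and are no separate evidence for it. Fewer dividing cells and less RNA of these genes per cell cannot be told apart in bulk libraries.

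**Figure D1:**
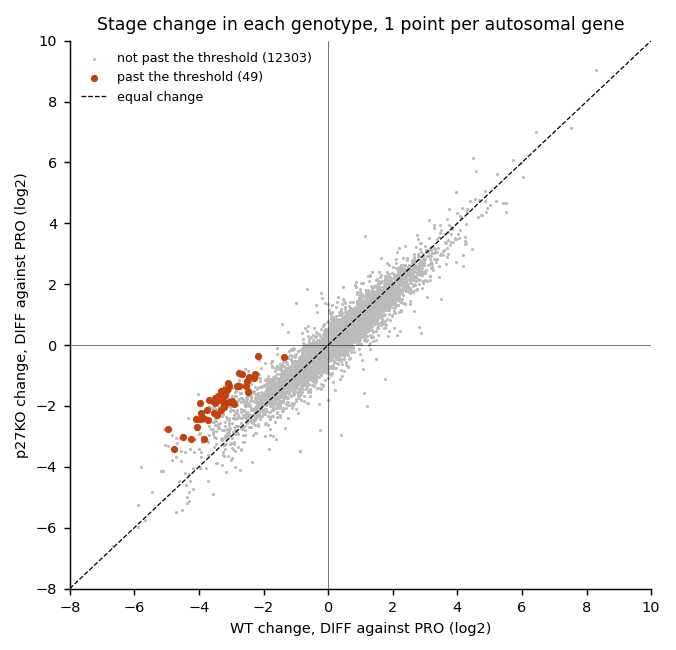
Change from PRO to DIFF of each autosomal gene in WT cells (horizontal axis, log2) against the change in cells labelled p27KO (vertical axis, log2), 1 point per gene. The 49 called genes are red, the other 12303 are grey, and on the dashed line both changes would be equal. All red points lie above the line at the left, with WT changes from -4.96 to -1.38.

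The genotypes differed in these genes at DIFF. In neurospheres the p27KO against WT difference of the 49 genes lay between -0.24 and 0.42 and none was called. At DIFF it lay between 0.87 and 2.56, and each of the 49 was called higher, where 1.86% of all autosomal genes were. All 49 had every p27KO library above every WT library at DIFF, an arrangement found in 16.8% of autosomal genes. In neurospheres 11 of the 49 had the p27KO libraries above and 2 below all WT libraries, against 6.93% and 11.0% of autosomal genes. All 49 were thus apart at DIFF, in a measure that uses the same DIFF libraries as the interaction, and some were also apart in neurospheres. The median difference of the 49 was 0.10 in neurospheres, against -0.005 over all autosomal genes, and 1.64 at DIFF.

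**Figure D2:**
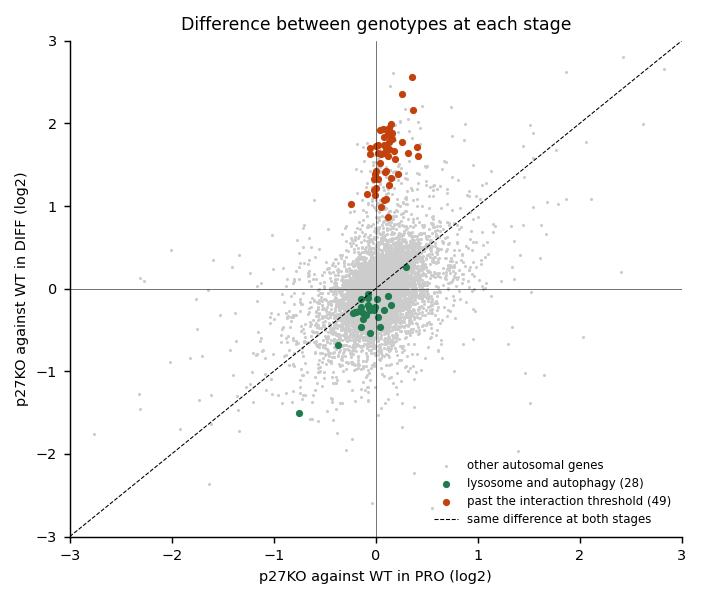
Difference between p27KO and WT libraries (log2) in neurospheres (horizontal axis) against the difference at DIFF (vertical axis), 1 point per autosomal gene, with 4 further genes beyond the axes. Red points are the 49 called genes, which spread from -0.24 to 0.42 along the horizontal axis and from 0.87 to 2.56 along the vertical one, and green points are the 28 lysosome and autophagy genes tested.

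The number of calls depended on single libraries. Without replicate 2 or 3 of WT PRO, or without any single p27KO library, no gene was called by edgeR, with 296 to 650 positive genes at an unadjusted p under 0.05, and without replicate 1 of WT PRO 13 genes were called. Without a WT DIFF library the calls were 86, 80 and 38 for replicates 1, 2 and 3. With the replicate numbers of the WT libraries as a block 77 genes were called, and with blocks in both genotypes 29, of which 23 were among the 49. Calls lost with blocks in both genotypes and with a block shared by them included E2f7, Fbxo5, Foxm1, Aurkb, Cdca8, Incenp, Iqgap3, Bard1 and Rtkn2. Bard1 also lost its call with limma-voom. The sign did not move: the interaction of each of the 49 genes was positive in all 22 alternative fits. With any library left out the values stayed between 0.69 and 2.46. The 49 genes were chosen for a positive interaction and the fits share libraries, so the sign is no separate evidence.

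Among the regulators of entry into S phase, 3 of 22 tested genes were called, E2f7, E2f8 and Fbxo5, and the median interaction was 0.37 against -0.01 over all autosomal genes. E2f7 (ENSMUSG00000020185, chromosome 10, 110745439 to 110787384, plus strand) encodes an atypical E2F that represses the targets of the activating E2Fs. It stood at 31.2, 34.5 and 35.8 CPM in WT neurospheres and 41.0 and 43.8 CPM in p27KO neurospheres, and at 1.32, 0.539 and 1.42 CPM in WT and 6.54 and 6.21 CPM in p27KO cells at DIFF. The genotypes overlapped in no library at DIFF, where both p27KO values were above 4 times the highest WT value. With an interaction of 2.21 (SE 0.34, edgeR with Benjamini-Hochberg adjusted p = 0.0323), E2f7 had the highest value of the 49 genes. Its paralogue E2f8 had an interaction of 1.49, and Fbxo5, which encodes EMI1, an inhibitor of the anaphase-promoting complex, had 1.31. Outside the called set, Cdk4, the kinase of the cyclin D complexes, was at -0.09 (95% interval -0.47 to 0.29) and E2f2 at 1.10.

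Replication genes had a lower list median than the lists of mitotic kinases, kinetochore and spindle. Of 42 origin and fork genes, 5 were called: Ticrr and Dbf4, which serve origin firing, the helicase subunit Mcm5, the checkpoint mediator Clspn and the ligase Lig1. The list had a median change of -2.89 in WT and -2.36 in p27KO cells and a median interaction of 0.48, with 37 of the genes positive. Ticrr (ENSMUSG00000046591, chromosome 7, 79660196 to 79698148, plus strand) went from 44.9, 51.3 and 49.8 CPM in WT neurospheres to 3.61, 2.98 and 2.97 CPM at DIFF, and from 47.6 and 59.0 to 11.4 and 11.8 CPM in p27KO cells. Its p27KO libraries were inside or above the WT range at PRO and above it at DIFF, and the interaction was 1.72 (SE 0.19, edgeR, Benjamini-Hochberg adjusted p = 0.0217). Lig1, which joins Okazaki fragments, had the smallest called interaction, 0.75 (SE 0.13), and its call was lost in 15 of the 22 alternative fits, among them limma-voom and every replicate block. It fell from 131, 144 and 142 CPM to 10.6, 8.83 and 10.0 CPM in WT cells and from 156 and 141 CPM to 17.4 and 18.1 CPM in p27KO cells. The clamp loader gene Rfc3 had the lowest value of the list, -0.20.

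Rrm2, the regulated subunit of ribonucleotide reductase, was the called gene among 12 genes of deoxynucleotide synthesis. It stood at 207, 223 and 225 CPM in WT and 279 and 254 CPM in p27KO neurospheres, and at 9.01, 6.47 and 8.86 CPM in WT and 24.9 and 25.2 CPM in p27KO cells at DIFF. The p27KO level at DIFF was above all WT libraries and remained far below its level in neurospheres. The interaction was 1.33 (SE 0.16, edgeR, Benjamini-Hochberg adjusted p = 0.023). Tyms at 0.50 and Rrm1 at 0.54 did not pass the test, and Tk2, the mitochondrial thymidine kinase, was at -0.13. In homologous recombination and the Fanconi pathway, 4 of 25 genes were called, among them Brip1 at 1.52, Bard1 at 1.19 and Polq at 1.14. The median of that list was 0.62, and Fancg, at -0.09, was its only negative member.

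Kinases and cyclins of mitosis, kinetochore proteins and spindle motors had the highest list medians. All 23 tested mitotic kinase and A or B cyclin genes were positive, with a median interaction of 1.33 that stayed between 1.17 and 1.59 with any library left out. In this list 7 genes were called: Bub1, Pbk, Ccna2, Aurkb, Ttk, Foxm1 and Mastl. Bub1, a checkpoint kinase (ENSMUSG00000027379, chromosome 2, 127801122 to 127831865, minus strand), stood at 78.4, 73.0 and 78.3 CPM in WT and 83.2 and 71.6 CPM in p27KO neurospheres. At DIFF it was at 7.79, 4.06 and 6.17 CPM in WT and 23.1 and 21.5 CPM in p27KO cells, with no overlap, and the interaction was 1.88 (SE 0.26). Ccna2, cyclin A2, drives S phase and entry into mitosis. Its levels were 245, 260 and 236 CPM in WT neurospheres, 22.5, 14.7 and 25.7 CPM in WT cells at DIFF, 244 and 246 CPM in p27KO neurospheres and 73.5 and 64.9 CPM in p27KO cells at DIFF. The p27KO cells kept more than the highest WT library at DIFF, and the interaction was 1.72 (SE 0.25).

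Pbk, a mitotic kinase, fell from 88.0, 101 and 104 CPM to 10.8, 6.63 and 8.54 CPM in WT cells and from 115 and 93.6 CPM to 32.9 and 30.4 CPM in p27KO cells, with an interaction of 1.77 (SE 0.23). Aurkb, the kinase of the chromosomal passenger complex, fell from 54.8, 53.1 and 53 CPM to 3.92, 2.03 and 3.68 CPM in WT cells and from 55.4 and 55.9 CPM to 11.1 and 9.89 CPM in p27KO cells, with an interaction of 1.65 (SE 0.27). In both genes the genotypes overlapped or nearly touched in neurospheres and were apart at DIFF, and replicate 2 of WT DIFF was the lowest library. Foxm1, a transcription factor that activates genes of G2 and mitosis, was at 1.31, Ttk at 1.58 and Mastl at 1.21.

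At the kinetochore, 8 of 37 genes were called and 36 were positive, with a median of 1.16. Spc25 and Knl1 belong to the outer kinetochore, Cdca8, Birc5 and Incenp to the chromosomal passenger complex, and Cenpf and Mad2l1 to the corona and the spindle checkpoint. Cenpf (ENSMUSG00000026605, chromosome 1, 189640606 to 189688086, minus strand) was at 250, 221 and 288 CPM in WT and 326 and 314 CPM in p27KO neurospheres. In p27KO cells at DIFF it was still at 263 and 240 CPM, within the range of the WT neurospheres, while WT cells were at 64.5, 38.7 and 68.1 CPM. Its interaction was 1.79 (SE 0.29, edgeR, Benjamini-Hochberg adjusted p = 0.0387). Spc25 fell from 61.7, 59.1 and 63.5 CPM to 7.53, 4.43 and 6.88 CPM in WT cells and from 73.1 and 59.1 CPM to 26.3 and 21.2 CPM in p27KO cells, with an interaction of 1.81.

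Knl1 fell from 79.2, 76.2 and 95.0 CPM to 11.3, 7.34 and 11.8 CPM in WT cells and from 94.5 and 85.5 CPM to 37.7 and 34.4 CPM in p27KO cells, with an interaction of 1.71 (SE 0.24). All its p27KO libraries at DIFF were above all WT libraries. Cdca8 fell from 78.7, 77.5 and 76.5 CPM to 8.96, 4.77 and 7.59 CPM in WT cells and from 69.4 and 76.5 CPM to 23.0 and 20.5 CPM in p27KO cells, with an interaction of 1.69 (SE 0.26). Its partners in the passenger complex, Birc5 and Incenp, had interactions of 1.62 and 1.21, and Mad2l1 had 0.98. Zw10, which also works outside mitosis in transport from the endoplasmic reticulum, was the only negative gene of the list, at -0.05 (95% interval -0.35 to 0.25).

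Spindle genes gave the highest median of the cell division lists, 1.44, with all 31 genes positive and 9 called. The median moved between 1.27 and 1.60 when single libraries were left out. Esco2, which acetylates cohesin (ENSMUSG00000022034, chromosome 14, 65819038 to 65833994, minus strand), was at 38.8, 34.6 and 38.3 CPM in WT and 48.1 and 39.4 CPM in p27KO neurospheres, and at 2.09, 2.07 and 2.93 CPM in WT and 13.2 and 10.8 CPM in p27KO cells at DIFF. Each p27KO library at DIFF was above 3 times every WT library. The interaction was 2.09 (SE 0.23, edgeR, Benjamini-Hochberg adjusted p = 0.0217). Arhgap11a, which acts in cytokinesis (ENSMUSG00000041219, chromosome 2, 113831492 to 113848661, minus strand), had the same adjusted p with an interaction of 1.32 (SE 0.14), and stood at 27.6, 23.2 and 28.5 CPM in WT and 74.5 and 64.3 CPM in p27KO cells at DIFF after 142, 152 and 155 CPM in WT and 158 and 154 CPM in p27KO neurospheres. Cep55, needed for the final cut between daughter cells, fell from 26.9, 26.8 and 27.4 CPM to 3.66, 2.32 and 3.56 CPM in WT cells and from 28.5 and 27.1 CPM to 12.9 and 11.1 CPM in p27KO cells, with an interaction of 1.86. The spindle protein gene Hmmr fell from 99.1, 90.7 and 97.4 CPM to 9.57, 6.51 and 11.1 CPM in WT cells and from 104 and 94.5 CPM to 34.5 and 29.4 CPM in p27KO cells, with an interaction of 1.76. The motors Kif15 and Kif11 had interactions of 1.64 and 1.56, Nusap1 had 1.48, Iqgap3 had 1.34 and Ckap2 had 1.30.

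**Figure D3:**
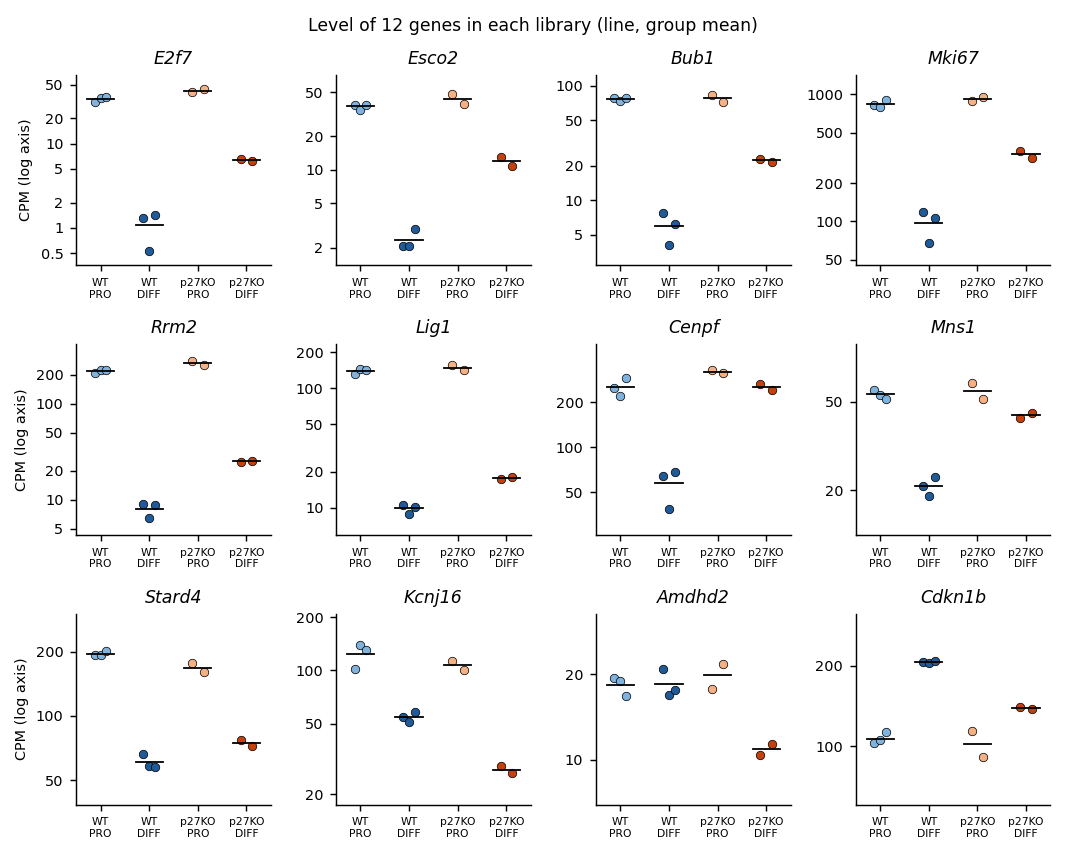
Levels of 12 genes in each of the 10 libraries (vertical axes, CPM on a log scale) by group (horizontal axes, WT and p27KO at PRO and DIFF), 1 point per library, with a line at each group mean. In E2f7, Esco2, Bub1, Mki67, Rrm2, Lig1, Cenpf, Mns1 and Stard4 both p27KO DIFF points lie above all WT DIFF points. In Kcnj16, Amdhd2 and Cdkn1b they lie below.

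Chromatin proteins of dividing cells were called in 3 of 28 cases, the condensin subunits Ncapg and Ncaph, at 1.56 and 1.19, and Mki67, which coats mitotic chromosomes. Mki67 was at 118, 67.6 and 107 CPM in WT and 360 and 313 CPM in p27KO cells at DIFF, against 821, 800 and 905 CPM in WT and 889 and 954 CPM in p27KO neurospheres, so that no DIFF library reached the neurosphere range. Its interaction was 1.65 (SE 0.27, edgeR, Benjamini-Hochberg adjusted p = 0.0392). Top2a, the topoisomerase that untangles chromosomes, had a value of the same order, 1.70 (95% interval 0.97 to 2.43), but did not pass the test. Nipbl, a loader of cohesin, was at -0.05, and the list median was 0.51.

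The size of the interaction was not the same in all genes of cell division. Of the 294 tested genes on these lists 260 were positive, their median interaction was 0.55, and the median change was -2.43 in WT and -1.50 in p27KO cells. None of 17 genes of the anaphase-promoting complex and its substrates was called, and the list median was 0.07. In it the coactivator Cdc20 was at 1.62, the ubiquitin-conjugating enzyme Ube2c at 1.57 and separase, Espl1, at 1.55, while the core subunit Anapc2 was at -0.17. Centrosome and centriole genes likewise held no call among 23, with a median of 0.21, from -0.50 for Haus4 to 1.79 for Aspm. Inhibitors of cyclin-dependent kinases had a median of 0.16 over 8 genes, none called, and genes of quiescence and the p53 response had 0.13 over 22. The 4 tested replication-dependent histone genes, of 23 listed, had a median of -0.15, with 1 positive and none called. That median changed sign in 2 of the 22 alternative fits. With 4 of 23 genes tested, it does not show how these histone genes changed as a group.

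**Figure D4:**
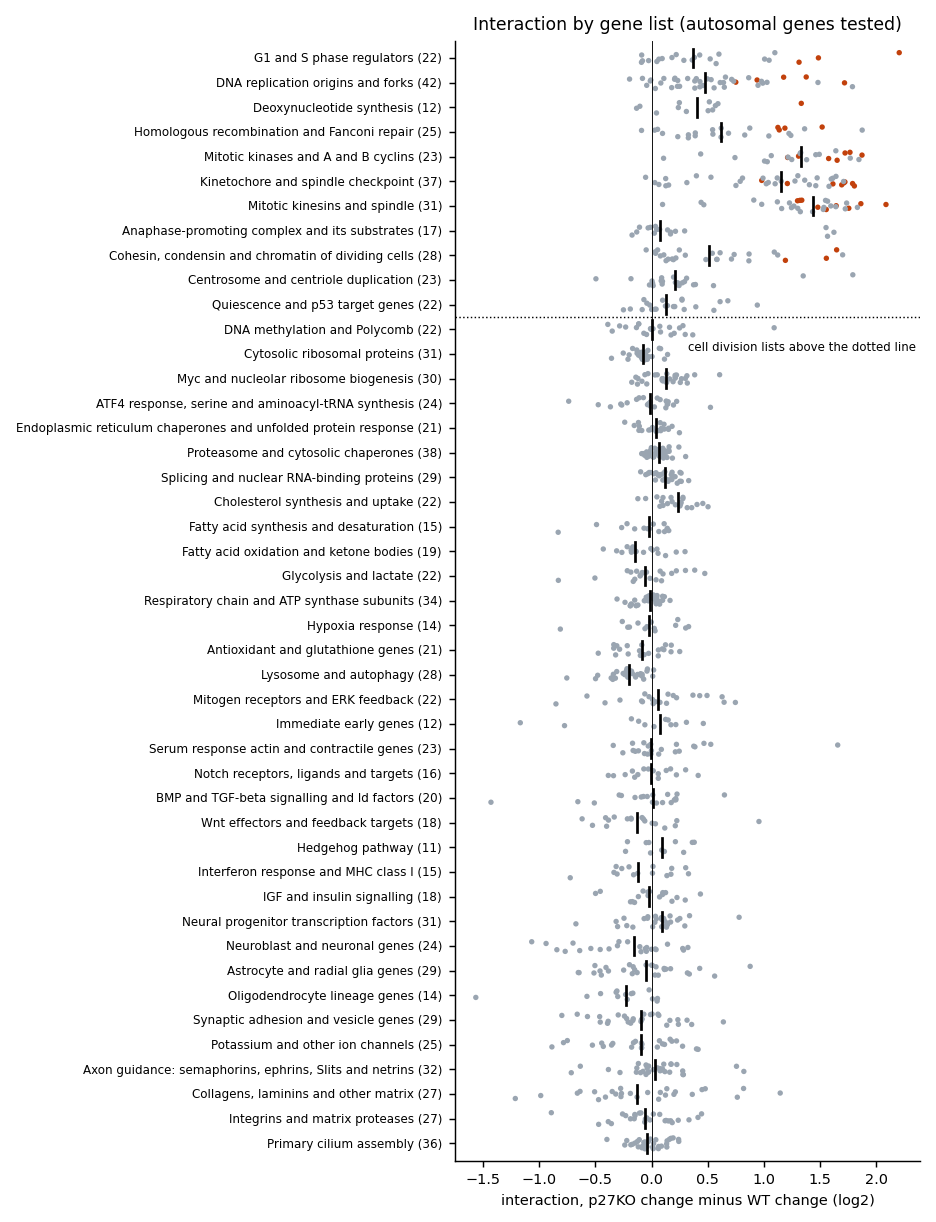
Interaction of each gene (horizontal axis, log2) on 45 gene lists with 10 or more tested genes (vertical axis), 1 point per gene and a black bar at each list median. Called genes are red. Lists of cell division are above the dotted line, with medians from 0.07 to 1.44, and lists of other functions below it, with medians from -0.22 to 0.23 and no red point.

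Of the 9 called genes on no cell division list, 7 are protein-coding. Kntc1 (interaction 1.48) and Spdl1 (1.60) bring dynein to kinetochores, Cip2a (1.42) inhibits the phosphatase PP2A, and Ankle1 (1.76) is a nuclease. The call of Ankle1 was lost in 15 of the 22 alternative fits, among them limma-voom and every replicate block. Rtkn2 had an interaction of 1.26. Cip2a (ENSMUSG00000033031, chromosome 16, 48994185 to 49019709, plus strand) was at 108, 96.7 and 120 CPM in WT and 116 and 97.5 CPM in p27KO neurospheres and at 16.2, 13.2 and 18.6 CPM in WT and 44.6 and 40.2 CPM in p27KO cells at DIFF. Prr11 (ENSMUSG00000020493, chromosome 11, 87089153 to 87108708, minus strand) was at 57.5, 57.2 and 61.9 CPM in WT and 55.7 and 59.4 CPM in p27KO neurospheres and at 12.1, 8.99 and 11.5 CPM in WT and 30.7 and 25.5 CPM in p27KO cells at DIFF, with an interaction of 1.39. In both genes the p27KO libraries were above the WT libraries at DIFF without overlap.

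Mns1, a protein of the axoneme of motile cilia and sperm tails (ENSMUSG00000032221, chromosome 9, 72438011 to 72462025, plus strand), had the smallest fall of the called genes in WT cells, -1.38. It was at 56.4, 53.9 and 51.8 CPM in WT and 60.7 and 51.6 CPM in p27KO neurospheres and at 21.0, 18.9 and 23.0 CPM in WT and 42.4 and 44.7 CPM in p27KO cells at DIFF. The groups overlapped in neurospheres and were apart at DIFF, and the interaction was 0.99 (SE 0.14, edgeR, Benjamini-Hochberg adjusted p = 0.023). The summed markers of motile cilia did not separate the genotypes, at 119 to 140.1 CPM in WT and 115 to 139 CPM in p27KO libraries at DIFF. Gm10259 (1.23) is a processed pseudogene and AC093020.1 (1.84) a transcript that overlaps another gene on its strand, so their counts may hold reads of other genes and are uncertain. In all, 47 of the 49 are protein-coding and 21 share positions with another annotated gene.

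The promoters of the called genes were read from RefSeq (build GRCm38.p6), from 250 bases before to 50 after each start, and 37 of the 49 genes had an entry. The CHR letters TTTGAA, on either strand, were in 22 of these, or 59.5%, against 11.1% of all 8401 autosomal promoters matched and 32.6% of the 193 promoters of uncalled genes on the cell division lists. CCAAT was in 64.9% of them, 39.6% of all and 59.6% of the uncalled cell division promoters. Either of the E2F motifs TTCCCGC and TTGGCGC was in 32.4%, 13.6% and 32.1%. CCAAT and TTTGAA together were in 37.8%, 4.90% and 21.8%. The motifs can share letters where they meet, each match then counting for each motif, and a match is a description of the letters and not a binding site. The 200 bases before the start follow for 3 called genes of the cell division lists and 3 of those outside them, 5′ to 3′ on the gene's strand, with matches on either strand in capitals (ATTGG and TTCAAA are CCAAT and TTTGAA read on the other strand). They are shown so that the elements of Arhgap11a (chr2:113848662-113848861, minus strand), Ticrr (chr7:79659996-79660195, plus strand) and Clspn (chr4:126556780-126556979, plus strand), of cytokinesis and replication, can be set beside those of Prr11 (chr11:87108715-87108914, minus strand), Mns1 (chr9:72438329-72438528, plus strand, a start that lies 518 bases from the annotated start of the gene in GENCODE) and Cip2a (chr16:48993988-48994187, plus strand).
Arhgap11a: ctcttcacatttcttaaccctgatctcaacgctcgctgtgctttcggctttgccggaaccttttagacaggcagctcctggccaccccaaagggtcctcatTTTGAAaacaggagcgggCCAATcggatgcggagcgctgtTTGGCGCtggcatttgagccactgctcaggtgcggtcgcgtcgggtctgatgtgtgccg
Ticrr: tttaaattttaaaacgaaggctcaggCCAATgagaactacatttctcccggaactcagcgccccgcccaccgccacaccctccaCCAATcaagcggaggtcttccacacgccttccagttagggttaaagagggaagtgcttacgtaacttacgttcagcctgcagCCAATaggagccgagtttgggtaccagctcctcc
Clspn: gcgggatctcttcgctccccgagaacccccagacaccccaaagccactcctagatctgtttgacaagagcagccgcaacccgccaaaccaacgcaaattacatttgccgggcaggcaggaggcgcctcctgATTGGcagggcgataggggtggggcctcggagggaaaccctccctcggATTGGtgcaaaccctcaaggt
Prr11: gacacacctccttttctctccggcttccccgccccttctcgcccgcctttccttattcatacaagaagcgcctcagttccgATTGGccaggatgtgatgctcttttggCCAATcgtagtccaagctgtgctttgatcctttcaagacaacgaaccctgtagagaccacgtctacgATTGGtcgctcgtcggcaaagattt
Mns1: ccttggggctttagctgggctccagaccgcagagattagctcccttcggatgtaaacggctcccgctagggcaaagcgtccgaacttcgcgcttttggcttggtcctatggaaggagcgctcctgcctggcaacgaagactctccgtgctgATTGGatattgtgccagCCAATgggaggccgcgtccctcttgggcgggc
Cip2a: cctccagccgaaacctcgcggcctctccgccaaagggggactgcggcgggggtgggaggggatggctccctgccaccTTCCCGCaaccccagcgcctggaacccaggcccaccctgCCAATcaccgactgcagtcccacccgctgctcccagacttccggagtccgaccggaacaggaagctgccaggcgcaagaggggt

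The threshold split genes with like values. Just inside it was Rtkn2, with an adjusted p of 0.0464, and just outside it were Exo1, Kifc1 and Bora, each with an adjusted p of 0.0512 by edgeR with Benjamini-Hochberg adjustment. Bora, an activator of Aurora A, had an interaction of 1.20, Parpbp, which restrains recombination, 1.37, Pimreg 1.93 and Gas2l3 1.64. Further uncalled positive genes outside the cell division lists were Tedc1 at 1.10, the chromatin remodeller Hells at 1.09, which is on the list of DNA methylation and Polycomb and was called by DESeq2 (adjusted p = 0.0015), Pmf1 at 0.97, Nemp1 at 0.76, Arhgap19 at 0.72 and Cdca7, a partner of Hells, at 0.68. These 10 genes are given as values and not as calls. DESeq2, used as an alternative test, called 149 positive genes (1.21%) and 4 negative ones (0.0324%), among them all 49. On no cell division list it called 43 positive genes (0.357%) and 3 negative ones (0.0249%). A gene on no such list can still act in division, and Kntc1, Spdl1 and Bora are among the 43. The limma-voom test called 63 positive genes (0.51%) and no negative one.

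On 39 lists of other functions no gene was called, and the medians of lists with 10 or more tested genes lay close to that of all genes. Of the genes on no cell division list 0.0746% were called, so 795 genes could hold no call at that share. In simulated counts of independent libraries edgeR called 27 and 30 of 50 genes changed by 1 and -1, so changes of that size can be missed. The changed genes there had means above 10 CPM, so the simulation does not cover changes in genes of lower level. Across the 795 genes of 39 other lists, 379 interactions were positive and 416 negative, with a median of -0.01, the value of all autosomal genes. At an unadjusted p under 0.05 there were 13 positive genes (1.64%) and 7 negative ones (0.881%), against 1.81% and 1.36% of the 12058 genes on no cell division list. Of 34 such lists with 10 or more tested genes, 22 had a negative median and 12 a positive one, and the median of 23 changed sign in at least 1 of the 22 alternative fits. DESeq2 called 3 of the 795 genes, Hells and Stard4 as positive and Kcnj16 as negative. The highest was cholesterol synthesis at 0.23 and the lowest the oligodendrocyte lineage at -0.22.

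Cholesterol genes fell on differentiation in WT cells, with 22 of 22 past the threshold, and in p27KO cells with 22, where 34.1% and 30.5% of autosomal genes fell. The median change was -1.95 in WT and -1.64 in p27KO cells. The interaction was positive in 20 of 22, with none called, and its median stayed positive with any library left out, from 0.13 to 0.28. Here the genotypes differed more in neurospheres than after them: the median p27KO against WT difference was -0.19 at PRO and -0.001 at DIFF, and 12 genes were lower in all p27KO than in all WT neurospheres, where 11.0% of autosomal genes were. Stard4, which carries sterols within cells (ENSMUSG00000024378, chromosome 18, 33199355 to 33213862, minus strand), was at 193, 193 and 201 CPM in WT and 177 and 160 CPM in p27KO neurospheres and at 66.6, 58.0 and 57.6 CPM in WT and 77.2 and 72.2 CPM in p27KO cells at DIFF. Its p27KO libraries were below the WT ones at PRO and above them at DIFF. With an interaction of 0.50 (SE 0.12) it was not called by edgeR (Benjamini-Hochberg adjusted p = 0.219) and was called by DESeq2 (adjusted p = 0.00662). Idi1 at 0.46, Cyp51 at 0.28 and Sc5d at 0.26 are enzymes of the pathway that had the same sign, while Srebf2, its transcription factor, was at -0.12.

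Lysosome and autophagy genes leaned the other way. The interaction was negative in 26 of 28 genes, against 6422 of the 12352 autosomal genes, with a median of -0.20, and none was called or had an unadjusted p under 0.05. Their median change was 0.34 in WT and 0.18 in p27KO cells, and 16 genes rose in WT against 10 in p27KO cells, where 33.4% and 27.4% of autosomal genes did. At DIFF 26 of the 28 were lower in both p27KO than in all 3 WT libraries, where 20.5% of autosomal genes were, and in neurospheres 4 were, where 11.0% were. The sign of the median held without any library, from -0.26 to -0.16. Mcoln1, the lysosomal calcium channel, was at -0.50, the hydrolase genes Hexa and Ctsa at -0.31 (edgeR, unadjusted p = 0.0526) and -0.32, and Map1lc3b, the autophagosome marker LC3B, at -0.21. Becn1, the autophagy initiator, had the opposite sign at 0.02. The microglia markers summed to 32.6 to 44.2 CPM in WT and 30.6 to 31.6 CPM in p27KO libraries at DIFF, 5 of 15 were at 0 in every library, and the part of such cells in this pattern was not tested.

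**Figure D5:**
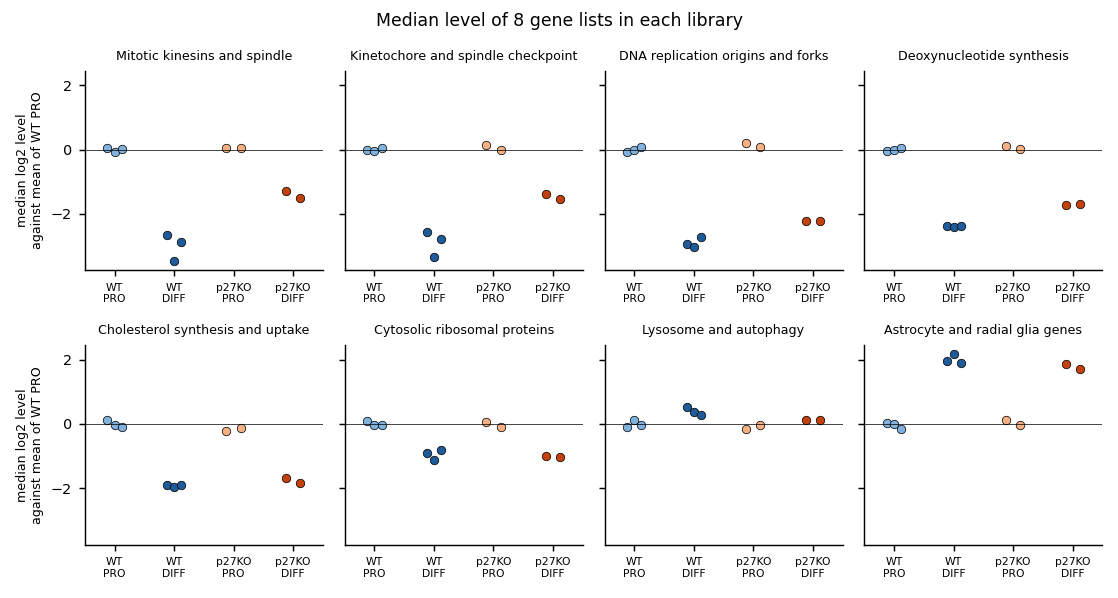
Median level of the genes of 8 lists in each library (vertical axes, log2 against the mean of the WT PRO libraries) by group (horizontal axes), 1 point per library. Spindle genes at DIFF stood at -2.64, -3.47 and -2.88 in WT and -1.30 and -1.51 in p27KO libraries, and lysosome genes at 0.54, 0.37 and 0.27 in WT and 0.12 and 0.12 in p27KO libraries.

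Genes of growth and of protein and RNA production had medians near that of all genes. Cytosolic ribosomal protein genes had a median change of -0.92 in WT and -1.01 in p27KO cells and a median interaction of -0.08, with 26 of 31 negative, a sign that turned to 0.03 without replicate 1 of p27KO PRO. Nucleolar and Myc-related genes had a median of 0.13, with 22 of 30 positive, among them Utp20, a factor of ribosome assembly, at 0.38 (edgeR, unadjusted p = 0.0053). Without single libraries this median ran from 0.07 to 0.19, the low value without replicate 2 of WT DIFF. Splicing genes had 0.12, or 0.03 to 0.26 without replicate 2 or 1 of p27KO PRO, with 24 of 29 positive. Fatty acid oxidation had a median of -0.14, which was -0.03 without replicate 1 of p27KO PRO, and the carnitine transferase Cpt2 was at -0.43 (edgeR, unadjusted p = 0.0403). Glycolysis stood at -0.06, or at 0.06 without replicate 2 of WT DIFF, and the respiratory chain at -0.01. No gene of these lists was called.

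Genes of cell identity showed no called interaction either. Of 29 astrocyte and radial glia genes 21 rose in WT and 21 in p27KO cells, where 33.4% and 27.4% of autosomal genes did, with median changes of 1.97 in WT and 1.68 in p27KO cells and a median interaction of -0.05, which turned to 0.07 without replicate 1 of p27KO PRO. Transcription factors of neural progenitors had a median of 0.09 over 31, with Sox2, which maintains the stem cell state, at 0.09 and Olig2 at -0.17. The 95% interval for Sox2 was -0.28 to 0.46, which bounds the difference at these 10 libraries. Neuroblast and neuronal genes were negative in 18 of 24 cases, against 6422 of 12352 autosomal genes. Their median of -0.16 reached -0.32 without replicate 2 of p27KO DIFF. Sp9, a factor of interneuron precursors, was at -0.84 (edgeR, unadjusted p = 0.041). The median p27KO against WT difference at DIFF was -0.26, yet the summed level of the 35 listed genes was higher in p27KO libraries. It was 3252.6 to 3309.3 CPM in WT and 3618.5 to 3926.8 CPM in p27KO neurospheres. At DIFF it was 3782.5 to 4030.8 CPM in WT and 4135.4 to 4238 CPM in p27KO cells. Oligodendrocyte lineage genes were negative in 11 of 14, and their median ran from -0.42 to -0.14 with single libraries left out, the former without replicate 2 of p27KO DIFF.

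No negative interaction passed the adjusted threshold of edgeR, while in the comparison of the genotypes at DIFF alone 15 autosomal genes (0.121%) were called lower in p27KO cells. Kcnj16, an inwardly rectifying potassium channel (ENSMUSG00000051497, chromosome 11, 110968033 to 111027968, plus strand), was at 102, 139 and 130 CPM in WT and 113 and 101 CPM in p27KO neurospheres and at 54.9, 51.0 and 58.1 CPM in WT and 28.9 and 26.2 CPM in p27KO cells at DIFF. Both p27KO values at DIFF were below all WT values, and the p27KO neurospheres overlapped the WT ones. Its interaction was -0.78 (SE 0.18, edgeR, Benjamini-Hochberg adjusted p = 0.175). Amdhd2, an enzyme of amino sugar metabolism (ENSMUSG00000036820, chromosome 17, 24155833 to 24163766, minus strand), was at 19.5, 18.9 and 16.8 CPM in WT and 17.8 and 21.8 CPM in p27KO neurospheres and at 20.9, 16.9 and 17.6 CPM in WT and 10.4 and 11.4 CPM in p27KO cells at DIFF. Only in the p27KO DIFF group were all its libraries under 12 CPM, and the interaction was -0.88 (SE 0.20, edgeR, Benjamini-Hochberg adjusted p = 0.168). Cdkn1b rose by 0.94 in WT and by 0.42 in p27KO cells, an interaction of -0.53 (SE 0.13, edgeR, Benjamini-Hochberg adjusted p = 0.239). DESeq2 called these 3 genes, with adjusted p of 0.0139, 0.0245 and 0.030, and 1 more, Duxbl3, which is named after its value was seen. The other negative genes of lowest p were Nbl1, a secreted BMP antagonist, at -0.72, the G protein subunit Gng7 at -0.84, the reelin receptor Vldlr at -0.46, the flippase Atp8a1 at -0.58, Nipal3 at -0.55, Ech1, of fatty acid oxidation, at -0.50, Dynlt1b at -0.49, the proteasome activator Psme1 at -0.44, Tmem106c at -0.44, Lhfp at -0.42, Tmem176b at -0.41 and Pacs2 at -0.37. Each of these had a negative interaction in all 22 alternative fits and none was called. They were chosen for a low p among negative interactions, so the sign is no separate evidence.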

How the data were processed

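The members, all autosomal genes tested, and the gene lists were chosen with earlier results of these data known. The paper describes cDNA made with an Ovation RNA-seq kit and no poly(A) selection step. The authors aligned the RNA-seq reads to mouse genome GRCm38 (mm10) with STAR and deposited RSEM expected counts as whole numbers per Ensembl gene. Versions and strandedness are not given in the sources used here, so reads of overlapping and antisense genes cannot be told apart. Every column belongs to a named sample. Genes with under 1 CPM in 4 or more libraries were left out, which also removes genes near 0 at DIFF in both genotypes. Counts were normalised by TMM and fitted with 1 mean per group in edgeR 4.0.16 (robust quasi-likelihood test, R 4.3.3), with Benjamini-Hochberg adjustment over 12859 genes and GENCODE release M21 positions. DESeq2 1.42.0 and limma 3.58.1 served as alternatives, with other scalings and filters, replicate blocks and each library left out in turn. Named genes were those called, the 15 called genes of highest interaction with a mean of 10 CPM or more in full, the 15 negative and 10 positive uncalled genes of lowest p, and for each list the genes of lowest p and of opposite sign. Some genes that this rule names are not reported here. Counts of independent libraries were simulated with 200 changed genes, of mean above 10 CPM, among 12721. In these, edgeR called 49 and 47 of 50 genes changed by 2 and -2 (log2). It called 27 and 30 of 50 changed by 1 and -1, and 14 of the unchanged. No pair of replicates agreed within sampling noise (chi-square per gene 14.8 to 64.5). Same-numbered WT libraries deviated together (correlations 0.248, 0.301 and 0.395) and p27KO ones did not (-0.138), and no source says what a number marks.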

Additional observations from a re-analysis of the deposited data

Results flagged for a closer look

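The stage change differed between the genotypes in 49 autosomal genes and in Kif4, a mitotic kinesin on chromosome X (interaction 1.54), by the interaction test itself. All were positive. Among regulators of S phase entry the values were 2.21 for E2f7, 1.49 for E2f8 and 1.31 for Fbxo5, and in replication 1.72 for Ticrr, 1.38 for Clspn, 1.18 for Mcm5, 0.94 for Dbf4 and 0.75 for Lig1, with 1.33 for Rrm2. Repair genes gave 1.52 for Brip1, 1.19 for Bard1 and 1.14 for Polq. Mitotic kinases and regulators gave 1.88 for Bub1, 1.77 for Pbk, 1.72 for Ccna2, 1.65 for Aurkb, 1.58 for Ttk, 1.31 for Foxm1 and 1.21 for Mastl. At the kinetochore and in the passenger complex the values were 1.81 for Spc25, 1.79 for Cenpf, 1.71 for Knl1, 1.69 for Cdca8, 1.62 for Birc5, 1.21 for Incenp and 0.98 for Mad2l1. Spindle and cytokinesis genes gave 2.09 for Esco2, 1.86 for Cep55, 1.76 for Hmmr, 1.64 for Kif15, 1.56 for Kif11, 1.48 for Nusap1, 1.34 for Iqgap3, 1.32 for Arhgap11a and 1.30 for Ckap2, and chromatin genes 1.65 for Mki67, 1.56 for Ncapg and 1.19 for Ncaph. The 9 on no cell division list were AC093020.1 at 1.84, Ankle1 at 1.76, Spdl1 at 1.60, Kntc1 at 1.48, Cip2a at 1.42, Prr11 at 1.39, Rtkn2 at 1.26, Gm10259 at 1.23 and Mns1 at 0.99. Groups of 2 and 3 libraries were too small for the test of single outlying samples.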

How the results depend on the processing

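The count of genes with a positive interaction was 49 in the reported fit. It was 149 with DESeq2, 75 without the filter on low counts, 77 with a replicate block of the WT libraries and 29 with a replicate block within each genotype, and with single libraries left out it ran from 0 to 86. The count of negative genes was 0, and it was 4 with DESeq2, 1 without the filter, 1 with the WT block and 0 to 2 with single libraries left out. Duxbl3 was the gene without the filter, Rundc3a the gene with the WT block, and Duxbl3 and Grm4 the genes without replicate 3 of WT DIFF, all named after their values were seen. Other scalings, limma-voom, a looser and a stricter filter and a block shared by the genotypes gave 46 to 63 positive genes and 0 negative ones. As an alternative chosen after the data were seen, the p27KO numbers were crossed, which gave 65. The pairing is unsettled because only the WT numbers went together. In genes near 0 the sign turned only when a library was left out, over ranges of -0.18 to 0.0048 for Cdk4, -0.11 to 0.012 for Nipbl, -0.33 to 0.12 for Srebf2, -0.13 to 0.026 for Zw10 and -0.0498 to 0.0837 for Becn1. Of the 34 lists outside cell division with 10 or more tested genes, 11 kept the sign of their median in all 22 alternatives. In the other 23 it turned in at least 1. For the 11 cell division lists of that size the sign held. The cause was not tested. With 2 p27KO libraries per stage, the spread within that genotype rests on few residual degrees of freedom. The 95% intervals given are per gene and not adjusted for the number of genes tested. An interval that excludes 0, as for Top2a, Id1, Id3, Sfrp1, Sema3c and Grik2, is therefore no call. Library totals were 19190068 counts or more, and 47 of the 49 genes had a mean of 10 CPM or more.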

Other observations

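Signalling and matrix lists not described above held no called interaction. Genes of mitogen receptors and ERK feedback had a median interaction of 0.05 over 22 genes, immediate early genes 0.07 over 12, the Notch pathway -0.01 over 16, BMP and TGF-beta signalling 0.01 over 20 and Wnt effectors -0.13 over 18, or -0.03 without replicate 1 of WT DIFF. Inhibitors of differentiation Id1 and Id3, both BMP targets, were at 0.65 (95% interval 0.03 to 1.27) and -0.51 (-1.01 to -0.01), and the Wnt antagonist Sfrp1 was at 0.96 (0.01 to 1.90). Collagens, laminins and other matrix genes had a median of -0.13 over 27, which ran from -0.26 without replicate 1 to 0.19 without replicate 2 of p27KO PRO. The medians were -0.05 over 27 for integrins and proteases, 0.03 over 32 for axon guidance, -0.09 over 25 for ion channels and -0.09 over 29 for synaptic genes. In these groups the guidance cue Sema3c was at 0.82 (0.09 to 1.56) and the glutamate receptor Grik2 at -0.46 (-0.88 to -0.04).

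Stress and housekeeping lists were also near the value of all genes. The ATF4 and aminoacyl-tRNA list had a median of -0.01, chaperones of the endoplasmic reticulum 0.04, proteasome and cytosolic chaperones 0.07, fatty acid synthesis -0.02, antioxidant genes -0.09, the hypoxia response -0.02, interferon response -0.12 (0.03 without replicate 2 of p27KO DIFF), primary cilium assembly -0.04, and DNA methylation and Polycomb 0.01, where the maintenance methyltransferase Dnmt1 was at 0.25 (-0.02 to 0.52).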
